A study of Mus musculus with 8 samples.

Results

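The cells described here were 483 of the 11146 cells of whole mouse forelimbs at embryonic day (E) 11.5. Each had at least 1 unique molecular identifier (UMI, the tag that marks 1 captured transcript) of *Tbx2*, *Tbx3* and *Hand2* and none of *Hoxa13*. Whole 1 held 241 of them among 5464 cells and whole 2 held 242 among 5682, after a filter of at least 3000 UMIs and at most 10% mitochondrial UMIs per cell. They are called Hand2 Tbx2 Tbx3 cells below. Because these 4 genes chose the cells, their levels are given as a description and were not tested.

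The series profiled forelimb mesenchymal progenitors of C57BL/6J mice in 8 droplet libraries with 53085 cells after the same filter. Dams were given 7.5 mg of tamoxifen by gavage at E10. According to the study's methods all mice, including those of the whole-limb libraries, were homozygous for a CreERT2 allele of *Hic1* and for a Rosa26 LSL tdTomato reporter, so that Cre driven from the *Hic1* locus marked *Hic1*-expressing cells and their descendants. Of the 8 libraries, 6 held sorted tdTomato+ cells of E11.5 to E16.5 forelimbs. Whole 1 and whole 2 held tdTomato+ and tdTomato- cells of E11.5 forelimbs together, and according to the methods cells with blood and endothelial surface markers had been excluded. Nothing in the labels says how many embryos went into whole 1 or whole 2, or that they came from separate litters, so a spread between them may be technical.

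The posterior margin of the limb bud holds the zone of polarising activity, whose cells secrete Sonic hedgehog (*Shh*) and pattern the digits and the ulnar side of the forearm. *Hand2* encodes a basic helix-loop-helix transcription factor of the posterior mesenchyme that acts upstream of *Shh*. *Tbx2* and *Tbx3* encode T-box repressors that are known from bands along both the anterior and the posterior border of the bud. *Hoxa13* marks the distal mesenchyme that forms the hand plate, while *Irx3*, *Irx5*, *Pax1* and *Alx4* are genes of the proximal and anterior side.

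Promoter windows of 2 genes are shown because *Hand2* separates these cells from the anterior T-box cells and *Dkk1* had the largest increase in them among genes of at least 50 CPM. Both come from RefSeq on GRCm38.p6 and run from 250 bases before to 50 bases after the gene start, read along the gene's strand. The *Hand2* window is chr8:57320733-57321032 (plus strand) and the *Dkk1* window is chr19:30549447-30549746 (minus strand). Capitals mark E-boxes, the CANNTG letters that helix-loop-helix factors bind, searched on both strands. The *Hand2* window held 2 of them and the *Dkk1* window 0, against at least 1 in 72.3% of all 32851 windows. Neither window held the T-box letters GGTGTGA, which were in 3.98% of all windows, or the Gli letters GACCACCCA, which were in 0.253%.
Hand2: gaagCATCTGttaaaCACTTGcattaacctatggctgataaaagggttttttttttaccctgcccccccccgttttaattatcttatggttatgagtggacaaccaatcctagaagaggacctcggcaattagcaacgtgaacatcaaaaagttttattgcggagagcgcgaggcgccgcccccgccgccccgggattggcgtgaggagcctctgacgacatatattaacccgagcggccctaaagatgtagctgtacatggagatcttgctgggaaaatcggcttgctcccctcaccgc
Dkk1: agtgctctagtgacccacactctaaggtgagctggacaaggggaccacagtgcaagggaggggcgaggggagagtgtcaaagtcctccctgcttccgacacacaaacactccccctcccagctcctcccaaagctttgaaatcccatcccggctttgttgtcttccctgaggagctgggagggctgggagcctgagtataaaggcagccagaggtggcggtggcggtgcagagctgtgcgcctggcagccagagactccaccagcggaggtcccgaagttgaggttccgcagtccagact

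On the mm10 annotation the genes that chose the cells lie at chr11:85832551-85841948 (*Tbx2*, plus strand), chr5:119670669-119684724 (*Tbx3*, plus strand), chr8:57320983-57324633 (*Hand2*, plus strand) and chr6:52257694-52260880 (*Hoxa13*, minus strand). Most Hand2 Tbx2 Tbx3 cells sat just inside the threshold for *Tbx2*. In 168 of 241 cells of whole 1 and 165 of 242 cells of whole 2, *Tbx2* was present at exactly 1 UMI. The corresponding cells for *Tbx3* numbered 66 and 68, and those for *Hand2* 82 and 109. All of the 3 genes were at exactly 1 UMI in 19 cells of whole 1 and 31 of whole 2.

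Levels are counts per 1000000 UMIs (CPM), from UMIs summed over cells. *Tbx2* stood at 130 and 144 in Hand2 Tbx2 Tbx3 cells of whole 1 and whole 2 and at 10.2 and 11.9 in all other cells. *Tbx3* was at 301 and 291 CPM against 83.5 and 92.5, and *Hand2* at 261 and 234 CPM against 79.5 and 75.3. Just outside the rule were 33 and 31 cells that also carried *Hoxa13*. A further 187 and 213 cells had *Tbx2* and *Tbx3* but no *Hand2* UMI, and 666 and 656 had *Tbx3* and *Hand2* but no *Tbx2*. Cells with at least 3 myogenic markers were taken to lack these genes. Of them, 16.1% and 13.3% had a *Tbx2* UMI, at median depths of 13217 and 12201 UMIs. That is no lower than the 11.9% and 12.1% over all cells (median depths 8850.5 and 8593.5). By this class, a single *Tbx2* UMI cannot be told from background. Chondrogenic cells, at median depths of 7527.5 and 7188.5 UMIs, had lower shares of 6.25% and 6.13%. Shares were 4.76% and 4.35% in epithelial cells and 8.70% and 0% in endothelial cells, from 28 cells or fewer per library. Glial and erythroid cells were too few to read. The background of *Tbx2* is thus not settled. *Tbx3* (11.7% and 14.9%) and *Hand2* (9.52% and 8.30%) were detected in fewer myogenic cells than over all cells, where the shares were 38.6% and 40.1% for *Tbx3* and 39.8% and 39.0% for *Hand2*.

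The whole-limb libraries held 51674380 and 51505671 UMIs, and depth set how many cells met the rule. Hand2 Tbx2 Tbx3 cells made up 4.41% (exact 95% binomial interval 3.88 to 4.99) of whole 1 and 4.26% (3.75 to 4.82) of whole 2. The share was 1.21% and 1.59% among cells below 6000 UMIs and 5.97% and 6.56% among cells with 15000 or more. Their median depth was 10054 and 9679 UMIs against 8785 and 8521 in the other cells. With every cell thinned to 3000 UMIs, 34 and 40 cells met the rule (0.622% and 0.704%). The libraries shared 43 cell barcodes, of which 1 met the rule in both. The doublet caller marked 1 and 5 cells, too few to have worked. Binomial and Poisson intervals given here cover counting error only.

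**Figure D1:**
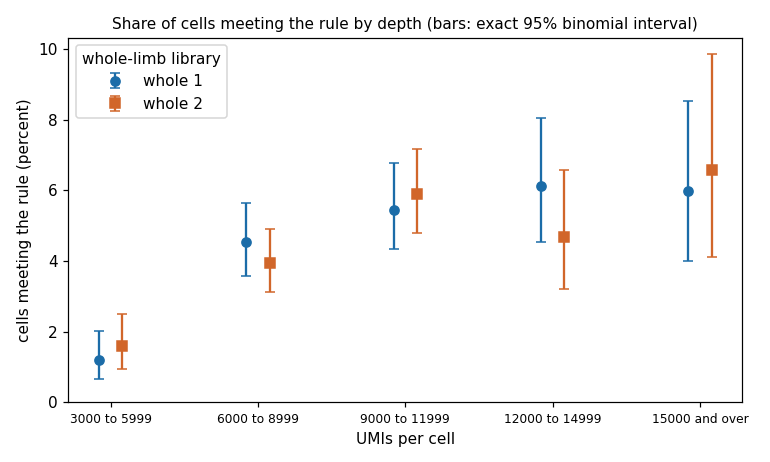
Share of cells meeting the rule (y axis, percent) by UMIs per cell (x axis, 5 bins) in whole 1 (circles) and whole 2 (squares), with exact 95% binomial intervals as bars. The share was lowest below 6000 UMIs, at 1.21% and 1.59%, and lay between 3.95% and 6.56% in the deeper bins.

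Hand2 Tbx2 Tbx3 cells carried the marks of forelimb mesenchyme. *Prrx1*, a homeobox gene of limb mesenchyme, was detected in 98.8% and 98.3% of them, and its level was 1168 and 1015 CPM against 619 and 593 in the other cells. In myogenic cells *Prrx1* was detected in 51.6% and 49.8%. *Tbx5*, the forelimb T-box gene, reached 138 and 131 CPM against 90.8 and 94.0 in the other cells, and *Tbx4*, its hindlimb counterpart, was found in 1 and 2 cells. The 8 limb mesenchyme markers summed to 2565 and 2299 CPM against 1904 and 1784. Of the markers of other cell types, several summed to less than in the other cells, with 4.63 and 2.85 CPM summed over 7 glial markers, 17.0 and 13.8 CPM over 8 endothelial markers and 9.26 and 4.88 CPM over 8 erythroid markers, against 337 and 281 CPM for the erythroid markers in the other cells. The 7 neuronal markers, which include *Isl1*, summed to 26.6 and 21.2 CPM against 24.0 and 24.4, and the 5 tendon progenitor markers to 54.8 and 57.0 CPM against 58.7 and 58.2, so neither set was low. In whole 2, 4 Hand2 Tbx2 Tbx3 cells had 3 or more of the 8 myogenic markers. The myogenic markers summed to 2.31 CPM in whole 1 and 46.4 in whole 2, and *Pax7* was at 0 in both. The reporter transcript tdTomato was detected in 4 and 3 of the cells and *Hic1* in 2 and 1.

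Cells without *Hoxa13* were divided by which of the 3 genes they had, to show where the Hand2 Tbx2 Tbx3 cells stood among the other combinations. *Ptch1*, *Hoxd11* and *Hoxd12* were higher in every combination with *Hand2* than in every combination without it. For *Gli1* the gap was narrow, from 9.64 CPM in cells of whole 1 with none of the 3 genes to 9.95 CPM in 64 *Tbx2* *Hand2* cells of whole 2. No separation is read from it. *Ptch1*, the receptor and target gene of Hedgehog signalling, stood between 68.1 and 87.7 CPM in each of the 4 combinations with *Hand2* in both libraries. In the 4 combinations without it the range was 22.8 to 39.1 CPM. *Hoxd11* lay between 217 and 308 CPM with *Hand2* and between 49.7 and 153 CPM without. The ranges of the 2 sets did not overlap for either gene. *Irx3* went the other way, from 113 to 139 CPM in cells with *Tbx2* and *Tbx3* but no *Hand2* to 14.6 to 17.7 CPM in Hand2 Tbx2 Tbx3 cells.

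Some genes separated Hand2 Tbx2 Tbx3 cells from cells with *Hand2* alone. *Hoxd13*, a gene of the distal limb, was at 89.5 and 70.8 CPM in the former and at 217 and 194 CPM in the latter. *Sox9*, which specifies cartilage precursors, was at 135 and 142 CPM against 272 and 327. *Osr1*, a connective tissue regulator, was higher, at 44.4 and 33.0 CPM against 11.98 and 10.9. *Bmp2*, which encodes a bone morphogenetic protein (BMP), was at 77.1 and 86.7 CPM in Hand2 Tbx2 Tbx3 cells, at 81.2 and 87.9 CPM in cells with *Tbx2* and *Hand2* only, and at 52.5 and 54.2 CPM in cells with *Hand2* only. In these genes the values of the 2 libraries lay apart between the Hand2 Tbx2 Tbx3 cells and the *Hand2*-only cells. Cells with *Tbx3* and *Hand2* but no *Tbx2* lay near the Hand2 Tbx2 Tbx3 cells in *Hoxd13* (102 and 90.3 CPM) and *Osr1* (30.6 and 32.7 CPM). Those differences are thus not particular to cells with all 3 genes. In the same cells *Sox9* (202 and 237 CPM) and *Bmp2* (57.9 and 60.8 CPM) lay between the Hand2 Tbx2 Tbx3 cells and the *Hand2*-only cells. These levels were not tested, because the combinations were formed with the same genes.

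**Figure D2:**
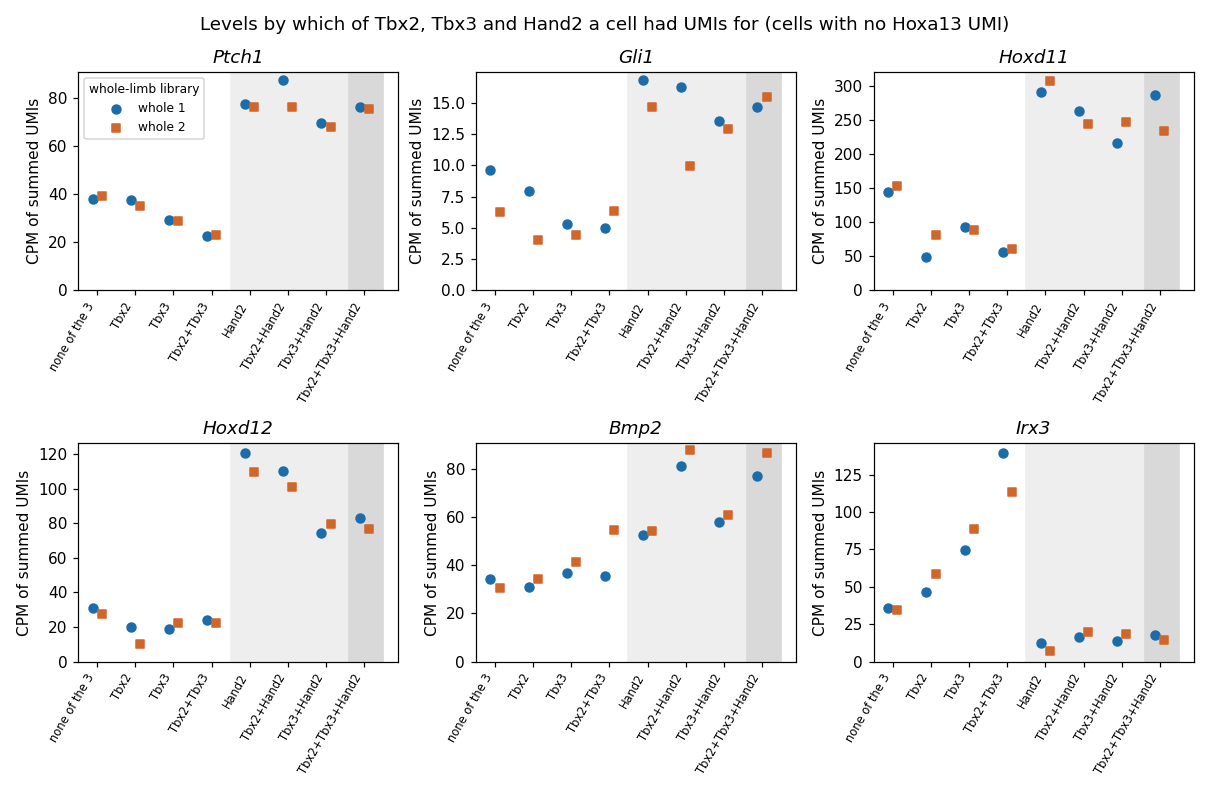
CPM of summed UMIs (y axes) of 6 genes in cells without *Hoxa13*, by which of *Tbx2*, *Tbx3* and *Hand2* had a UMI (x axes), with whole 1 as circles and whole 2 as squares. Light shading marks combinations with *Hand2* and dark shading the Hand2 Tbx2 Tbx3 cells. *Ptch1* was between 68.1 and 87.7 CPM with *Hand2* and between 22.8 and 39.1 CPM without it.

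Against all other cells of the same libraries, 928 of 13537 genes passed the test, which is 6.86%, with 448 higher (3.31%) and 480 lower (3.55%). UMIs were summed per library and tested with edgeR by quasi-likelihood, with library as a block and Benjamini-Hochberg adjustment at 0.05. The cells were chosen from these same libraries, and with 4 sums and 1 residual degree of freedom the p-values rest mostly on counting error. Without the block 358 genes passed, with DESeq2 249 and with cells thinned to 3000 UMIs before summing 344, and 16 passed when the rule itself was applied to thinned cells, which left 34 and 40 cells.

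*Dkk1*, a secreted antagonist of Wnt receptors (chr19:30545863-30549665), rose most among genes with at least 50 CPM in a population, the limit for the genes named here, while 51 genes of any level were called at least 2-fold higher. It was at 164 CPM in whole 1 and 83.4 CPM in whole 2, against 25.3 and 21.4 CPM in the other cells, a log2 fold change of 2.41 ± 0.11 (SE). Whole 2 held less of it than whole 1, and *Dkk1* UMIs were found in 97 of 241 and 65 of 242 cells, with at most 24 and 18 UMIs in 1 cell. The 5 cells with the most UMIs held 23.1% and 26.3% of the *Dkk1* UMIs. *Cntfr*, a receptor subunit for ciliary neurotrophic factor, was at 86.0 and 72.8 CPM against 19.0 and 19.1 (log2 fold change 2.08 ± 0.10). In cells of cluster 5 (of the clusters described below) outside the rule it was at 83.4 and 81.4 CPM. *Dlk1*, a transmembrane protein related to Notch ligands, was at 328 and 314 CPM against 128 and 127 (1.35 ± 0.05). In all of these genes both Hand2 Tbx2 Tbx3 sums lay above both sums of the other cells.

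*Shox2*, a homeobox gene needed for the upper limb bones, was at 705 and 592 CPM against 313 and 316 (1.06 ± 0.04). The other genes of this set were *Igfbp4*, which binds insulin-like growth factors (1.12 ± 0.04), the zinc finger gene *Zfp503* (1.07 ± 0.09), *Scube1* (1.01 ± 0.10), the transcription factor genes *Gata2* (1.00 ± 0.08) and *Klf2* (0.96 ± 0.08), *Hs6st2*, which modifies heparan sulphate (0.91 ± 0.10), *Tmem132c* (0.90 ± 0.08) and *Bmp2* (0.89 ± 0.09). All values are log2 fold changes over the other cells with their SE.

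Among the genes with the largest decreases above the same limit, *Pf4*, a platelet chemokine, was at 0.771 and 2.03 CPM against 47.1 and 54.9 CPM. It was carried by 13 cells of cluster 18 (of the clusters described below), none of them a Hand2 Tbx2 Tbx3 cell, at 28527 CPM against 0.859 CPM in all cells outside that cluster. *Col9a1* and *Col2a1*, collagens of cartilage, fell by 1.25 ± 0.09 and 1.05 ± 0.12 on the log2 scale. *Lmo2*, a transcriptional cofactor, fell by 1.20 ± 0.11, from 75.7 and 62.9 CPM in the other cells to 29.3 and 30.5 CPM. *Gas1*, a Hedgehog co-receptor, was at 223 and 299 CPM against 499 and 578 and fell by 1.03 ± 0.05. *Igfbp2* fell by 1.16 ± 0.08 and the T-box gene *Tbx15* by 1.03 ± 0.12. *Cdc42ep3*, *Asb4*, *Shisa2* and *Hey1* fell by between 0.88 and 1.18 on the log2 scale. In each of these genes, both sums lay below both sums of the other cells.

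**Figure D3:**
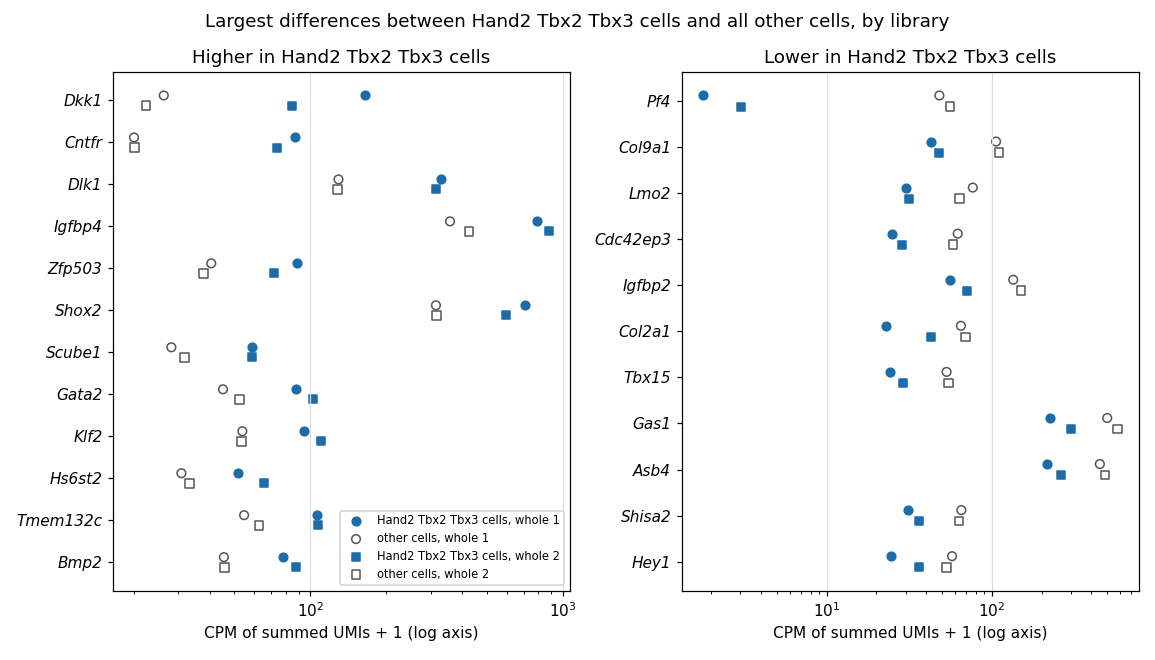
CPM + 1 on a log axis (x) for the 12 genes with the largest increases (left) and 11 of the 12 with the largest decreases (right) by the rule for named genes (y axes). Filled symbols are Hand2 Tbx2 Tbx3 cells, open symbols all other cells, circles whole 1 and squares whole 2. *Dkk1* stood at 164 and 83.4 CPM against 25.3 and 21.4, and *Pf4* at 0.771 and 2.03 against 47.1 and 54.9.

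The Hedgehog ligand *Shh* (chr5:28456815-28467256) was scarce and higher in Hand2 Tbx2 Tbx3 cells. Its UMIs numbered 18 in whole 1 and 29 in whole 2, or 6.94 and 11.8 CPM, against 3.04 and 2.89 CPM in the other cells (log2 fold change 1.67 ± 0.29, edgeR adjusted p = 7.88e-05). Cells with *Tbx3* and *Hand2* but no *Tbx2* had 6.67 and 6.70 CPM. Those with *Tbx2* and *Hand2* only had 1.62 and 8.29 CPM. *Shh* was detected in 14 and 16 of the cells, 5.81% and 6.61%, against 1.40% of the other cells in each library and in 0.366% and 0% of the 273 and 241 myogenic cells at the depths given above, where a count of 0 of 241 allows up to 1.24%. With every cell thinned to 3000 UMIs the shares were 2.07% and 3.72% against 0.670% and 0.588%. In whole 2 the 5 cells with the most UMIs held 58.6% of the *Shh* UMIs. Of the other ligands, *Ihh* was at 0 and 1 UMI.

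Of the Hedgehog response genes, *Ptch1* (chr13:63508328-63573598) rose. It was at 76.4 and 75.3 CPM against 51.9 and 51.9 (0.57 ± 0.08, adjusted p = 7.05e-06). The call was lost when cells were thinned to 3000 UMIs before summing (0.34) and when at least 2 UMIs of each gene were required. *Gli1*, the transcriptional effector most often read as a sign of signalling, was at 14.7 and 15.5 CPM against 11.5 and 9.42 (0.54 ± 0.19, adjusted p = 0.0794). *Hhip*, a Hedgehog-binding inhibitor, was at 3.09 and 2.44 CPM against 3.80 and 3.07. Of 11 genes of Hedgehog reception and Gli effectors, 0 rose and 3 fell, *Gas1*, its fellow co-receptor *Boc* (5.79 and 13.8 CPM against 20.3 and 20.5) and *Gli3*, whose product represses Hedgehog targets (50.5 and 59.8 CPM against 77.0 and 85.0, log2 fold change -0.54 ± 0.09). The median log2 fold change was 0.04 over the reception genes, beside -0.01 over all genes tested.

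Some BMP antagonists were lower than in all other cells. Of 9 tested, 0 rose and 5 fell, with a median log2 fold change of -1.61 beside -0.01 over all genes tested. Genes scarce in the Hand2 Tbx2 Tbx3 cells could pass the count filter through the other cells, so this count and median depend in part on the filter. Against the *Tbx2* *Tbx3* cells without *Hand2*, 0 of 5 rose and 2 fell. Against the cells that also carried *Hoxa13*, 0 of 2 rose and 0 fell. Against the *Irx3* *Irx5* cells described below, 0 of 7 rose and 3 fell. *Fst*, which encodes follistatin, was at 3.86 and 4.48 CPM against 25.9 and 22.2, and *Smoc1* was at 2.70 and 3.26 CPM against 12.2 and 11.4. *Nog*, *Chrdl1* and *Smoc2* were the others that fell, *Smoc2* with a value of -2.33 in whole 1 alone and -0.90 in whole 2 alone, and the call of *Nog* was lost without the block and with DESeq2. *Grem1*, the antagonist that links *Shh* to the growth factors of the apical ridge, was at 26.2 and 24.0 CPM against 32.6 and 33.4 (log2 fold change -0.37 ± 0.13, edgeR adjusted p = 0.0814) and did not pass. Of 7 BMP ligands, *Bmp2* and *Bmp4* rose, *Bmp4* to 33.6 and 36.6 CPM from 26.2 and 24.8, a call lost without the block, with DESeq2 and with cells thinned before summing. Of 13 BMP receptor and response genes, 2 rose and 3 fell. *Msx2*, a BMP-responsive homeobox gene, was among those that rose, at 317 and 282 CPM against 226 and 204, while *Msx1* was at 433 and 348 CPM against 471 and 387 and did not pass. In cells with *Tbx2* and *Tbx3* but no *Hand2*, *Msx2* was higher, at 480 and 429 CPM. Against those cells, 1 of these 13 genes rose and 6 fell.

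Of 21 Wnt genes, 4 rose and 7 fell, with a median of -0.13. *Dkk1* led those that rose, and *Notum*, a secreted feedback inhibitor of Wnt ligands, was at 11.96 and 9.77 CPM against 4.31 and 4.59, though its call was lost with DESeq2 and with cells thinned before summing. *Wnt5a*, a ligand of distal outgrowth, fell to 121 and 105 CPM from 171 and 178, and *Frzb*, a secreted Wnt antagonist of cartilage, to 44.0 and 37.4 CPM from 69.1 and 66.9. Of 14 genes of fibroblast growth factor signalling, 1 rose and 2 fell, with a median of -0.08. The receptor gene *Fgfr2* rose to 33.9 and 47.2 CPM from 19.4 and 22.6, whereas the feedback inhibitors *Dusp6* and *Spry2* fell, the latter with a call that was lost without the block and with DESeq2. *Fgf10*, the ligand of the limb mesenchyme, was at 19.7 and 14.2 CPM against 14.8 and 14.5 and did not pass.

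Some genes of the anterior limb bud were low in Hand2 Tbx2 Tbx3 cells. Of 11 tested, 0 rose, 5 fell and 6 did not pass, with a median log2 fold change of -0.76. Besides *Gli3*, those that fell included *Irx3* (17.7 and 14.6 CPM against 34.2 and 37.3), *Irx5* (10.0 and 9.77 against 18.1 and 19.6) and *Gata6* (1.54 and 2.85 against 12.4 and 11.1). The call of *Irx5* was lost with cells thinned before summing and with DESeq2. *Pax1*, a paired-box gene of the proximal anterior mesenchyme and the shoulder, was not among them. It was at 31.2 and 49.2 CPM against 30.0 and 36.2 and did not pass, and 20 and 25 cells carried it, the top 5 of which held 53.1% and 49.6% of its UMIs.

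Of 16 distal limb regulators, 0 rose and 9 fell, with a median of -0.48. The rule left out cells with *Hoxa13*, a distal gene, while 10.7% and 10.6% of the other cells had it. These falls may therefore follow in part from the rule. Against the *Tbx2* *Tbx3* cells without *Hand2*, which also lacked *Hoxa13*, 7 of 12 distal regulators rose and 2 fell. *Lhx9*, a LIM homeobox gene, fell to 116 and 142 CPM from 211 and 214, and *Sall3*, a zinc finger gene, to 23.1 and 25.2 CPM from 45.3 and 50.4. *Jag1*, a Notch ligand, fell to 11.96 and 11.8 CPM from 28.7 and 26.2. *Hoxd13* fell to 89.5 and 70.8 CPM from 124 and 108 (-0.51 ± 0.07), a call that was lost when the other cells were also limited to those without *Hoxa13* (-0.08). Of 14 proximal and retinoic acid genes, 4 rose and 2 fell. *Meis2*, a homeobox gene of the proximal limb, rose to 136 and 168 CPM from 96.4 and 112, and *Aldh1a2*, which makes retinoic acid, fell to 0 and 1.22 CPM from 4.78 and 5.77, a call lost with DESeq2. *Meis2* was higher in the *Tbx2* *Tbx3* cells without *Hand2*, at 252 and 279 CPM. Against them, 1 of 13 proximal and retinoic acid genes rose and 7 fell.

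Of 15 chondrogenic genes, 0 rose and 10 fell, with a median of -0.92. *Sox9* fell to 135 and 142 CPM from 226 and 244, and *Cnmd*, a cartilage membrane protein gene, to 0.386 and 1.22 CPM from 9.07 and 8.09. In the *Tbx2* *Tbx3* cells without *Hand2*, *Sox9* was as low, at 142 and 91.0 CPM. Against those cells, 0 of 10 chondrogenic genes rose and 3 fell, with a median of -0.32. Of 7 tested against the cells that also carried *Hoxa13*, 0 rose and 0 fell. Against the *Irx3* *Irx5* cells described below, 1 of 10 rose and 9 fell. At least 3 of 9 chondrogenic markers were found in 6.64% and 10.7% of Hand2 Tbx2 Tbx3 cells and in 19.3% and 20.2% of the other cells. Of 31 connective tissue regulators, 8 rose and 8 fell. *Osr1* rose to 44.4 and 33.0 CPM from 16.9 and 16.9, while *Osr2*, its close relative, fell to 7.71 and 10.6 CPM from 40.4 and 37.7. The *Tbx2* *Tbx3* cells without *Hand2* had a like *Osr1* level, at 35.5 and 45.5 CPM. *Foxp1* fell to 37.0 and 46.4 CPM from 72.5 and 72.8.

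Mitotic genes were higher than in all other cells. Of 9 markers, 8 rose and 0 fell, with a median of 0.30, and *Top2a*, a topoisomerase of dividing cells, was at 856 and 781 CPM against 582 and 582. With cells thinned to 3000 UMIs, at least 3 of these markers were found in 73.9% and 63.6% of Hand2 Tbx2 Tbx3 cells and in 55.3% and 56.1% of the other cells (unthinned 88.0% and 78.5% against 73.5% and 73.6%). Among cells of 6000 to 15000 UMIs, thinned alike, the shares were 72.9% against 58.4% in whole 1 and 65.5% against 62.8% in whole 2. The thinned shares were 72.7% and 67.7% in cells with all 3 genes and *Hoxa13*, and 55.6% and 67.1% in cells with *Tbx2* and *Tbx3* but no *Hand2*, the latter below the Hand2 Tbx2 Tbx3 cells in whole 1 and above them in whole 2. The median log2 fold change of the 9 markers was 0.06 against the former and 0.11 against the latter, where 3 rose and 0 fell. Among the 6 T-box genes tested outside the rule, *Tbx5* rose, *Tbx15* fell, and *Tbx18* was at 105 and 122 CPM against 92.4 and 101 (0.24 ± 0.07), a call that was lost without the library block and with DESeq2.

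Cells with *Tbx2* and *Tbx3* but no *Hand2* UMI differed from the Hand2 Tbx2 Tbx3 cells in the rule by *Hand2* alone. They numbered 187 and 213 and had median depths of 9273 and 9167 UMIs. Of 9697 genes tested, 556 passed (5.73%), with 214 higher (2.21%) and 342 lower (3.53%) in the Hand2 Tbx2 Tbx3 cells. Without the block 241 passed, and with DESeq2 74. Posterior and distal Hox genes and the Hedgehog response genes *Ptch1* and *Gli1* were higher, and anterior genes and all HoxB and HoxC genes tested were lower. The Hand2 Tbx2 Tbx3 cells are the same in all 4 comparisons, and the comparison populations overlap, so the comparisons are not independent of each other.

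*Ptch1* was at 76.4 and 75.3 CPM against 22.8 and 23.0 (log2 fold change 1.74 ± 0.16), and *Gli1* at 14.7 and 15.5 CPM against 4.999 and 6.36 (1.40 ± 0.33), the latter lost with DESeq2. *Cntfr* was at 86.0 and 72.8 CPM against 24.996 and 22.0 (1.76 ± 0.16). *Shh* had 18 and 29 UMIs against 6 and 2. On the other side stood *Irx3*, at 17.7 and 14.6 CPM against 139 and 113 (-2.95 ± 0.15), *Pax1*, at 31.2 and 49.2 CPM against 311 and 267 (-2.83 ± 0.10), and *Irx5*, at 10.0 and 9.77 CPM against 69.4 and 68.0 (-2.78 ± 0.19). All 7 anterior genes tested fell, with a median of -1.71, and 4 more were not tested. Anterior genes scarce in the Hand2 Tbx2 Tbx3 cells could pass the count filter through the comparison cells, so this count depends in part on the filter. *Tac1*, a neuropeptide precursor gene, fell by 2.18 ± 0.17 on the log2 scale.

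Hox genes divided by cluster and by position within the cluster. Of 7 HoxD genes, 4 rose and 0 fell, with *Hoxd11* at 287 and 234 CPM against 56.7 and 61.1 (2.14 ± 0.10), *Hoxd12* at 83.3 and 76.9 against 23.9 and 22.5 (1.80 ± 0.16) and *Hoxd13* at 89.5 and 70.8 against 24.4 and 26.4 (1.65 ± 0.15). Of 7 HoxA genes, *Hoxa9*, *Hoxa10* and *Hoxa11* rose and *Hoxa2*, *Hoxa5* and *Hoxa7* fell. The call of *Hoxa9* was lost without the block, and those of *Hoxa2*, *Hoxa7* and *Hoxa9* with DESeq2. All 6 HoxB genes and all 3 HoxC genes tested fell, with medians of -2.37 and -3.03. A further 4 HoxB and 6 HoxC genes had too few UMIs to be tested. Genes scarce in the Hand2 Tbx2 Tbx3 cells could pass the count filter through the comparison cells, so these counts depend in part on the filter. *Hoxc4* was at 3.47 and 7.73 CPM against 57.2 and 53.8, and *Hoxb3* at 8.10 and 13.8 CPM against 53.9 and 67.5.

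Hand2 Tbx2 Tbx3 cells were then compared with 272 and 323 cells that carried *Irx3* and *Irx5* but neither *Hand2* nor *Hoxa13*, as a reference from the anterior proximal mesenchyme. Of 9983 genes, 1300 passed (13%), with 566 higher (5.67%) and 734 lower (7.35%). Without the block 645 passed, and with DESeq2 208. *Irx3* and *Irx5* chose those cells and were not tested. *Hoxd12* was at 83.3 and 76.9 CPM against 2.35 and 2.59 (4.99 ± 0.24) and *Hoxd11* at 287 and 234 CPM against 9.78 and 15.9 (4.30 ± 0.12). *Dkk1* was at 164 and 83.4 CPM against 7.82 and 6.81 (4.04 ± 0.17). Of the HoxD genes 6 of 7 rose. Of the HoxB and HoxC genes all 7 and all 3 tested fell, with 3 and 6 not tested. As above, these counts depend in part on the count filter.

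*Shh* was not found in the *Irx3* *Irx5* cells. Taking 3 UMIs per library as the limit that a count of 0 allows, it was at least 5.92-fold higher in the Hand2 Tbx2 Tbx3 cells of whole 1 and at least 12.1-fold higher in those of whole 2. *Ptch1* was at 76.4 and 75.3 CPM against 12.5 and 18.1. Genes that were lower included *Hoxc4* (3.47 and 7.73 CPM against 125 and 91.1), *Agtr2*, an angiotensin receptor gene (2.70 and 4.07 against 57.5 and 56.4), *Gria2*, a glutamate receptor gene (1.54 and 8.14 against 60.6 and 74.9) and *Tcf15*, a helix-loop-helix gene (9.26 and 15.1 against 102 and 129). *Emx2* had a log2 fold change of -3.69 ± 0.22 and the BMP antagonist gene *Smoc2* one of -3.51 ± 0.24. *Smoc2* was at 1.93 and 7.32 CPM (5 and 18 UMIs) against 50.1 and 55.7, and its value was -4.12 in whole 1 alone and -2.77 in whole 2 alone. Of 13 distal limb regulators 9 rose and 2 fell, and of 13 proximal and retinoic acid genes 2 rose and 8 fell. The reference cells were chosen by *Irx3* and *Irx5*, genes of the proximal and anterior side, and lacked *Hand2*. These counts may therefore follow in part from that choice.

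**Figure D4:**
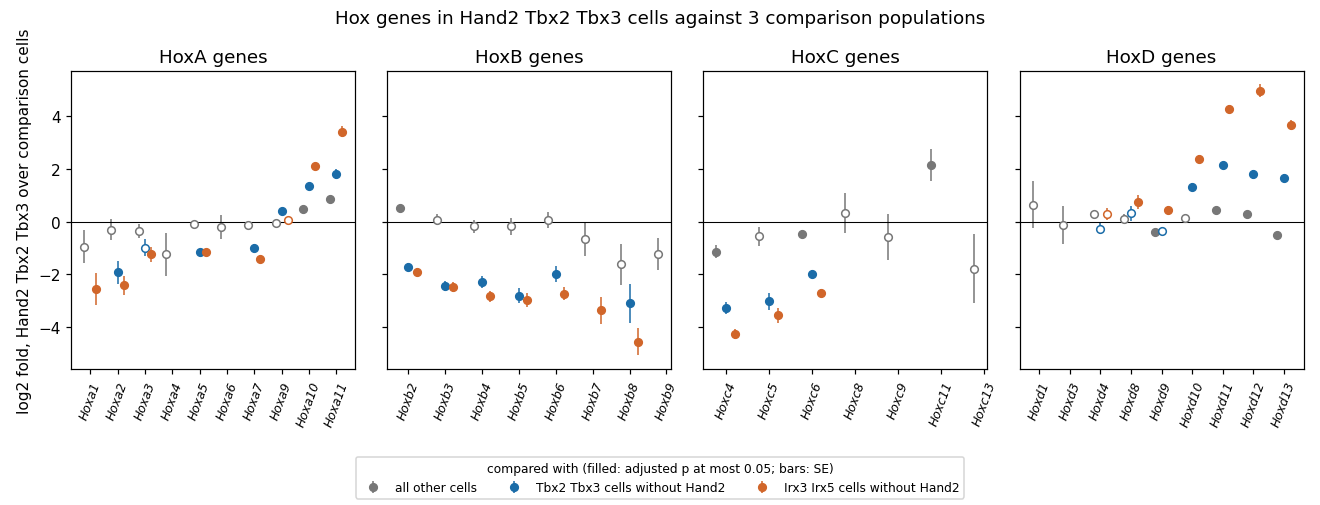
Log2 fold change of Hox genes in Hand2 Tbx2 Tbx3 cells (y axis) by gene in 4 clusters (x axes), over all other cells (grey), *Tbx2* *Tbx3* cells without *Hand2* (blue) and *Irx3* *Irx5* cells without *Hand2* (orange). Bars are SE and filled points have an adjusted p of at most 0.05. *Hoxd11* was higher by 2.14 and 4.30 over the latter populations and *Hoxc4* was at -3.29 and -4.27.

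Cells with all 3 genes and *Hoxa13*, which the rule left out, numbered 33 and 31 and had median depths of 13169 and 12278 UMIs. Of 8821 genes, 418 passed (4.74%), with 252 higher (2.86%) and 166 lower (1.88%) in the Hand2 Tbx2 Tbx3 cells. Without the block 195 passed, with DESeq2 50, and 215 with the deepest 5% of cells left out, a setting chosen after seeing the data. *Shh* was at 6.94 and 11.8 CPM against 43.2 and 66.8, a log2 fold change of -2.57 ± 0.36. *Hoxd13* (89.5 and 70.8 CPM against 214 and 220) and the distal regulators *Lmo2* (29.3 and 30.5 against 124 and 166) and *Lhx2* (69.8 and 80.6 against 183 and 203) were also lower. *Tfap2b*, *Crmp1*, *Pmaip1* and *Mtss1* fell by between 1.78 and 2.50 on the log2 scale, with *Crmp1* at -1.25 in whole 1 alone and -2.36 in whole 2 alone. Of 12 distal regulators tested 0 rose and 6 fell, in a comparison that was itself made by *Hoxa13*, a distal gene.

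Proximal genes lay on the other side of this comparison, which was made by *Hoxa13*, so their increases may also follow in part from that choice. *Meis2* was at 136 and 168 CPM against 22.7 and 42.0 (2.24 ± 0.24) and *Itm2a*, a membrane protein gene, at 511 and 564 CPM against 140 and 44.5 (2.47 ± 0.14), the latter lost with DESeq2. *Pkdcc*, a secreted kinase gene, was at 45.5 and 59.4 CPM against 2.06 and 4.95, the latter from 1 and 2 UMIs. *Kctd12* rose by 3.33 ± 0.43, with 4 and 1 UMIs in the *Hoxa13*-positive cells, and stood at 2.54 in whole 1 alone and 4.22 in whole 2 alone. *Fhl2* rose by 2.35 ± 0.32, with 10 and 3 UMIs there, and stood at 1.71 and 3.32 in whole 1 and whole 2 alone. Of 12 proximal and retinoic acid genes 7 rose and 1 fell, with a median of 1.19 (1.11 with the gene at 0 set to its bound). *Isl1*, a LIM homeobox gene, had 30 and 20 UMIs against 0, which is at least 1.87-fold and 1.10-fold higher. No Hedgehog response gene passed of 2 tested.

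When the whole-limb cells were clustered without the 4 genes of the rule and without Hox genes, 16 of 19 clusters held at least 1 Hand2 Tbx2 Tbx3 cell. Most fell into 2 clusters. Cluster 5, led by *Cntfr*, *Dkk1*, *Dlk1* and *Shox2*, held 126 and 107 of them, which is 52.3% and 44.2%, against 8.53% and 7.92% of all cells. Cluster 10, led by *Itm2a*, *Dlk1*, *Cntfr* and *Osr1*, held 38 and 48, or 15.8% and 19.8%, against 5.09% and 4.93% of all cells. Together the 2 clusters held 66.0% (exact 95% binomial interval 61.6 to 70.3). These genes defined the clusters and so are no further result. *Tbx3os1*, a transcript antisense to *Tbx3*, was not left out of the clustering and was among the 10 leading genes of both clusters, so the clusters were not made free of the rule's loci.

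Some of the remaining cells sat among cells with anterior genes. Cluster 7, led by *Pax1*, *Irx3* and *Irx5*, held 21 and 28 Hand2 Tbx2 Tbx3 cells (8.71% and 11.6%). In those, *Ptch1* was at 32.1 and 29.7 CPM and *Hoxd11* at 78.6 and 36.2 CPM, against 93.8 and 81.3 CPM of *Ptch1* and 350 and 293 CPM of *Hoxd11* in those of cluster 5. No *Shh* UMI was found in those of cluster 7, which allows up to 10.7 and 9.88 CPM, while those of cluster 5 had 12 and 19 (8.59 and 16.8 CPM). A lower *Shh* level than in cluster 5 was not detectable in whole 1 at this depth. Cells of cluster 5 outside the rule had a like level, at 9.87 and 14.02 CPM from 33 and 47 UMIs. They were also near the Hand2 Tbx2 Tbx3 cells of that cluster in other genes. *Shox2* was at 714 and 787 CPM beside 860 and 742, and *Bmp2* at 86.4 and 94.6 beside 99.5 and 116. *Hoxd11* was at 280 and 286 CPM beside 350 and 293, and *Ptch1* at 87.3 and 71.9 beside 93.8 and 81.3. *Dkk1* was lower in them, at 64.9 and 62.3 CPM beside 244 and 99.9. The other cells of cluster 7 had 15.98 and 13.96 CPM of *Ptch1* and 28.4 and 23.3 CPM of *Hoxd11*. The values of the Hand2 Tbx2 Tbx3 cells in cluster 7 rest on 9 and 9 *Ptch1* UMIs and 22 and 11 *Hoxd11* UMIs, and no difference within the cluster is read from them. Their *Pax1* was at 193 and 306 CPM beside 200.2 and 211 CPM. With markers of both sides present, the name posterior mesenchyme is not settled for these cells.

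*Top2a* was not kept out of the clustering, so its levels by cluster are a description with no test. It was at 1122 and 1131 CPM in the Hand2 Tbx2 Tbx3 cells of cluster 5, beside 1069 and 1035 CPM in the other cells of that cluster, and at 137 and 72.9 CPM in those of cluster 10, beside 105 and 123 CPM, while *Hoxd11* was at 238 and 274 CPM in the Hand2 Tbx2 Tbx3 cells of cluster 10. *Shh* had 0 UMIs in the Hand2 Tbx2 Tbx3 cells of cluster 10 in both libraries, which allows up to 10.0 and 8.75 CPM. Cluster 2, led by *Tfap2b*, *Ctsc* and *Lmo2*, held 18 and 6 of the cells, and the myogenic cluster 9 held 0 and 4.

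**Figure D5:**
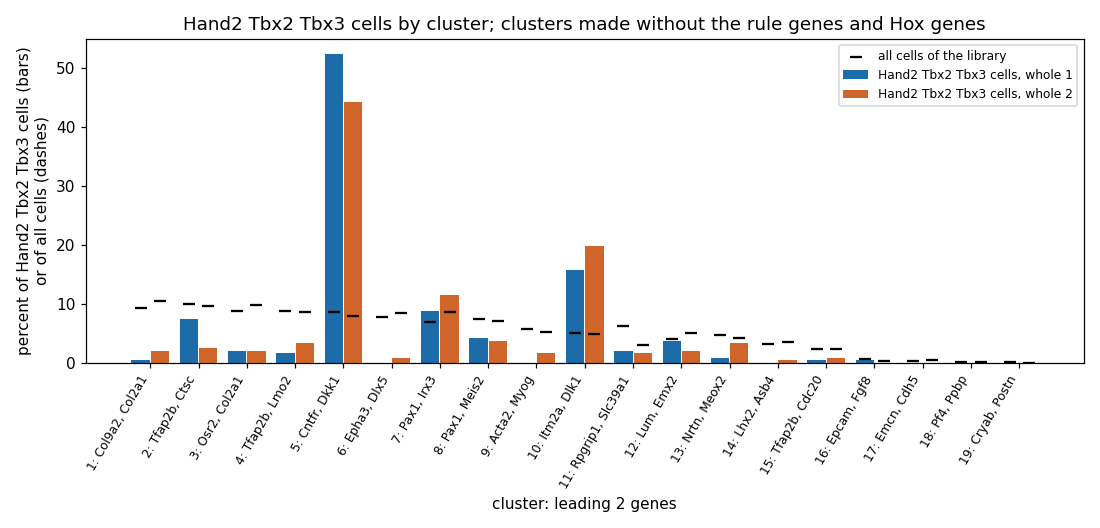
Percent of Hand2 Tbx2 Tbx3 cells in each of 19 clusters (y axis, bars) in whole 1 (blue) and whole 2 (orange), with the percent of all cells of the library as dashes and each cluster named by its leading 2 genes (x axis). Cluster 5 held 52.3% and 44.2% and cluster 10 held 15.8% and 19.8%.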

How the data were processed

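Droplet 3′ RNA-seq libraries were examined as matrices of UMI counts per gene and cell, deposited by the authors after alignment to a modified mm10 genome and counting with Cell Ranger. The files of whole 1 and whole 2 name no version. The counts are raw and not normalized, and 0 columns were left unused. Cells with at least 3000 UMIs and at most 10% mitochondrial UMIs were kept. The study's methods state the UMI limit.

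UMIs were summed per library and population. Genes passing filterByExpr were tested with edgeR 4.0.16 (R 4.3.3; glmQLFit, glmQLFTest, TMM, two-sided), with library as a block and Benjamini-Hochberg adjustment at 0.05. The block is by design, since both populations come from the same library. A gene scarce in a population could pass the filter through the population it was compared with, so list counts depend in part on the filter. Library differences of the populations correlated at r = 0.284, 0.0601, 0.186 and 0.218 across genes, which are not independent. CPM values are raw sums scaled to 1000000. Thinning drew 3000 UMIs per cell. Cells were clustered with scanpy 1.11.5 (2000 variable genes, 50 components, 25 neighbours, Leiden resolution 1). DESeq2 1.42.0 and other settings were alternatives. The test was checked on counts simulated with the dispersion fitted to these sums, which cannot show whether p-values hold over 2 libraries. With 1 residual degree of freedom the p-values rest mostly on counting error. The libraries are not known to be separate litters, so the p-values do not measure a spread between animals.

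Named genes were the 12 largest changes in each direction against all other cells (6 in the other comparisons) with an adjusted p of at most 0.05, 1 direction in both libraries and at least 50 CPM in a population, plus members of the gene lists. The cells, lists and tests were chosen with earlier results of these data known. Some genes that the rule or the lists name are not reported here.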

Additional observations from a re-analysis of the deposited data

Results flagged for a closer look

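Cells that met the same rule were also present in the 6 sorted tdTomato+ libraries, which enter no comparison above. Their share was 0.632% at E11.5 (20 of 3165 cells), 1.46% at E12.5 (69 of 4714), 0.490% at E13.5 (30 of 6123), 2.46% at E14.5 (206 of 8381), 1.74% in the proximal E16.5 library (193 of 11109) and 1.44% in the distal E16.5 library (122 of 8447). They are given because these libraries were not otherwise analysed and the counts are above 0, which by itself says nothing about background. Myogenic cells of the whole-limb libraries were taken to lack these genes. Of them, 0 of 273 (up to 1.10%) and 4 of 241 cells (1.66%, exact 95% binomial interval 0.454 to 4.19) met the rule. All shares but those of E11.5 and E13.5 lie above the limit of whole 1, and all 6 lie below the upper end of the interval of whole 2. In the same order, cells had median depths of 8992, 8683, 6788, 14333, 18473 and 17275 UMIs, and the share rises with depth in the whole-limb libraries. Each sorted group is 1 library, so differences between them were not tested.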

How the results depend on the processing

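The comparisons rest on 2 libraries and mostly on counting error, so their counts of genes moved with the model. Without the library block 358 genes passed against all other cells (137 higher, 221 lower), 195 against the *Hoxa13*-positive cells (129, 66), 241 against the *Tbx2* *Tbx3* cells without *Hand2* (74, 167) and 645 against the *Irx3* *Irx5* cells (225, 420), all of them among the calls made with the block and in the same direction. With DESeq2 the counts were 249 (143, 106), 50 (31, 19), 74 (21, 53) and 208 (77, 131) in that order. With cells thinned to 3000 UMIs before summing they were 344 (170, 174), 81 (50, 31), 129 (43, 86) and 524 (226, 298), with fewer UMIs and fewer genes tested. Applying the rule to thinned cells left 16 genes against all other cells (8, 8), and requiring at least 2 UMIs of each gene left 208 (87, 121), both with fewer cells. Of the 928 genes, 162 took the opposite sign in the former and 34 in the latter. Among the named genes, *Hoxd12* and *Pkdcc* turned to -0.0596 and -0.0623 in the former, and *Fhl2* and *Kctd12* to -0.154 and -0.0138 in the latter. Leaving out the deepest 5% of cells, chosen after seeing the data, left 215 against the *Hoxa13*-positive cells (140, 75), and the cause was not tested. The other settings gave 775 to 1004 genes against all other cells.

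Without a filter on low counts the split was 371 higher and 597 lower against all other cells, where the median of all genes moved to -0.116, and 253 and 112 against the *Hoxa13*-positive cells, where it moved to 0.128. With the rule on thinned cells the median was -0.185. The share of cells was 0.663% with the rule on thinned cells, 0.663% with at least 2 UMIs of each gene, 4.91% with any *Hoxa13* and 4.75% at 5000 or more UMIs, against a mean of 4.33%. Leaving out 1 library gave shares of 4.26% to 4.41% and values with no test, and in 1 of them, without whole 2, *Klf2* was at -0.0139 (0.841 without whole 1) against the *Tbx2* *Tbx3* cells without *Hand2*. At a Leiden resolution of 0.5 the top 2 clusters held 71.4% of the cells. Genes of a few UMIs per library, such as *Shh*, cannot be ranked within the cells at this depth.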
